A study of Mus musculus with 6 samples.

Results

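A set of 10 contractile genes of smooth muscle was followed in ovarian surface epithelial tumour cells of mice, grown in culture: Acta2, Actg2, Tagln, Cnn1, Myh11, Myl9, Des, Tpm1, Tpm2 and Lmod1. They were chosen by name, with earlier results of these data known. All 10 were found among 18194 genes that single-gene probe sets measured on the array, through 20 of its 45101 probe sets. Of these 10 genes, 8 passed the filter on low signals and were tested among 10916 genes; Myh11 and Lmod1 were too dim.

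The samples formed 3 groups of 2 arrays each. Homozygous cells carried the p53 mutation R172H on both alleles and came from animals of 4 weeks; heterozygous cells carried R172H beside a wild-type allele and came from animals of 9 and 12 weeks; wild-type cells had wild-type p53 and came from animals of 9 weeks. All 6 samples share the prefix P/K in their titles, which the labels do not spell out, and a mixed strain background. Cells had been released with trypsin, cultured in medium with serum and collected without passage. The titles were followed where, for the homozygous samples, another label names a relative of p53 instead. The labels do not say whether the arrays of a group came from separate animals, so p-values measure the spread between these samples only, and age cannot be told apart from homozygosity.

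Smooth muscle shortens when myosin, switched on by phosphorylation of its regulatory light chain, pulls on actin filaments that are lined by tropomyosin and calponin and anchored to a desmin network. Many of the genes are switched on together by serum response factor (SRF), which binds a DNA element called the CArG box with the help of myocardin or of the related MRTF proteins; MRTFs respond to the state of the actin cytoskeleton, and TGF-beta and TEAD factors add to the activation. Several members, Acta2 and Tagln first, are also made by myofibroblasts and by epithelial and mesothelial cells that change towards a mesenchymal state in culture, whereas Myh11 and myocardin are more restricted to differentiated smooth muscle.

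Promoters of 7 of the 10 genes, 250 bases before to 50 bases after the annotated start, were taken from RefSeq (GRCm38.p6); Actg2, Tagln and Myh11 were not among them. The CArG box was searched with at most 1 letter of its core being other than A or T, and the TEAD element as GGAATG on both strands; no matches of one overlapped the other. A CArG match lay in the promoters of Acta2 and Myl9, and in 9.98% of all 32851 promoters of this length. Without the deviating letter, Myl9 alone kept a match, against 1.63% of all promoters. The TEAD element lay in those of Acta2, Tpm1 and Lmod1, and in 14.7% of all. Neither was found in these windows of Des, Cnn1 and Tpm2. Shown are Acta2 (chr19:34255324-34255623, minus strand) and Myl9 (chr2:156775214-156775513, plus strand) because they hold the CArG matches, Lmod1 (chr1:135324563-135324862, plus strand) because it differed strongly between the homozygous arrays, and Tpm2 (chr4:43523505-43523804, minus strand) because it was high on both; capitals mark the matches, which describe letters and not proven sites.
Acta2: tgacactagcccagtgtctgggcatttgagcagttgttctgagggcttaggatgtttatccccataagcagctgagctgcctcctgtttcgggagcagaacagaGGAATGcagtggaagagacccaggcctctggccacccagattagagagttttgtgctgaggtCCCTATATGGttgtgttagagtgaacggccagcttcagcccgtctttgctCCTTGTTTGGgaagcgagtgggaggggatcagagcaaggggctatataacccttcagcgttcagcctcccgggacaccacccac
Myl9: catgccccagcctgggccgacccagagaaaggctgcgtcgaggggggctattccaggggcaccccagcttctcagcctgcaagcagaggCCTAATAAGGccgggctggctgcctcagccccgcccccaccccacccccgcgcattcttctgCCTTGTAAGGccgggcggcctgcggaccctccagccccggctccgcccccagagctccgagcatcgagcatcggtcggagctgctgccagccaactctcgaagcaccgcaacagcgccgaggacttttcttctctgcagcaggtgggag
Lmod1: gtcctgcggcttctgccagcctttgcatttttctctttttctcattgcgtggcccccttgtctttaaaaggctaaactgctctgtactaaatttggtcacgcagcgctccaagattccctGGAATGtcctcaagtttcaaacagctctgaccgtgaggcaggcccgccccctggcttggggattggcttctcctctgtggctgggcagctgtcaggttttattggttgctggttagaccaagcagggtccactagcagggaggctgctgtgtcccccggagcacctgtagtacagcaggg
Tpm2: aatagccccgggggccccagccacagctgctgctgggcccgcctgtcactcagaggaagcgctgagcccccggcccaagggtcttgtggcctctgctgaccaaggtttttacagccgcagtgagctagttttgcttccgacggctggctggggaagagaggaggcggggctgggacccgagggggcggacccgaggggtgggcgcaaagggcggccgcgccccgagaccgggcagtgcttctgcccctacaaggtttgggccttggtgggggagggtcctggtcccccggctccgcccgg

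The values are deposited signals on a linear scale, and the background level, the highest value of a bacterial control, was 24.5. The homozygous arrays stood apart from each other: over the tested genes, within-pair log2 differences had an SD of 1.30 in the homozygous, 0.55 in the heterozygous and 0.60 in the wild-type group. Wild-type array 2 and heterozygous array 1 were closer to each other, at 0.31, than the arrays of any group. Median signals ran from 41.1 on homozygous array 1 to 60.6 on wild-type array 1, with 49.0 on homozygous array 2. Homozygous array 1 also had the lowest share of probe sets above background, 60.3%, against 63.5% on homozygous array 2. Beta-actin control probe sets differed between the 3' and 5' ends, in log2, by 0.59 and 0.39 on the homozygous, 0.66 and 0.96 on the heterozygous and 0.77 and 0.74 on the wild-type arrays. Cdkn1a, a p53 target that encodes the cell cycle inhibitor p21, had signals of 192 and 111 in homozygous, 1548 and 1437 in heterozygous and 2519 and 2646 in wild-type cells. The p53 transcript itself was not analysed here.

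No contractile gene passed the test between any genotypes. Relative to the wild-type mean the homozygous arrays pointed in opposite directions, except for Tpm2 (0.90 and 1.75 in log2) and Des (-2.25 and -0.17). Actg2 was near that mean on array 2 (0.07), and Tpm1 on array 1 (-0.12). All 10 genes had a higher signal on homozygous array 2 than on homozygous array 1, by between 1.70-fold for Tpm1 and 161-fold for Myl9, while the heterozygous and wild-type arrays lay between them for 4 of the 8 tested genes. Among the 8 tested members, array 2 had the highest signal of all 6 arrays in 6, against 15.1% of all tested genes, and array 1 the lowest in 6, against 35.6% of all tested genes. Array 2 exceeded array 1 in 8 of the 8, against 52.7% of all tested genes, and exceeded it by at least 2-fold in 6, against 14.7% of all tested genes. Array 1 was lowest and array 2 highest of the 6 in 4 of the 8, against 4.34% of all tested genes. The members were chosen with earlier results of these data known. The shares of all tested genes therefore describe the set and do not test it. The beta-actin control difference given above was also the lowest of all 6 arrays on array 2. For the Gapdh control, the difference between the 3' and 5' ends was lowest on array 1 (-0.18 in log2, against -0.12 on array 2). The part of these differences in this pattern was not tested.

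**Figure D1:**
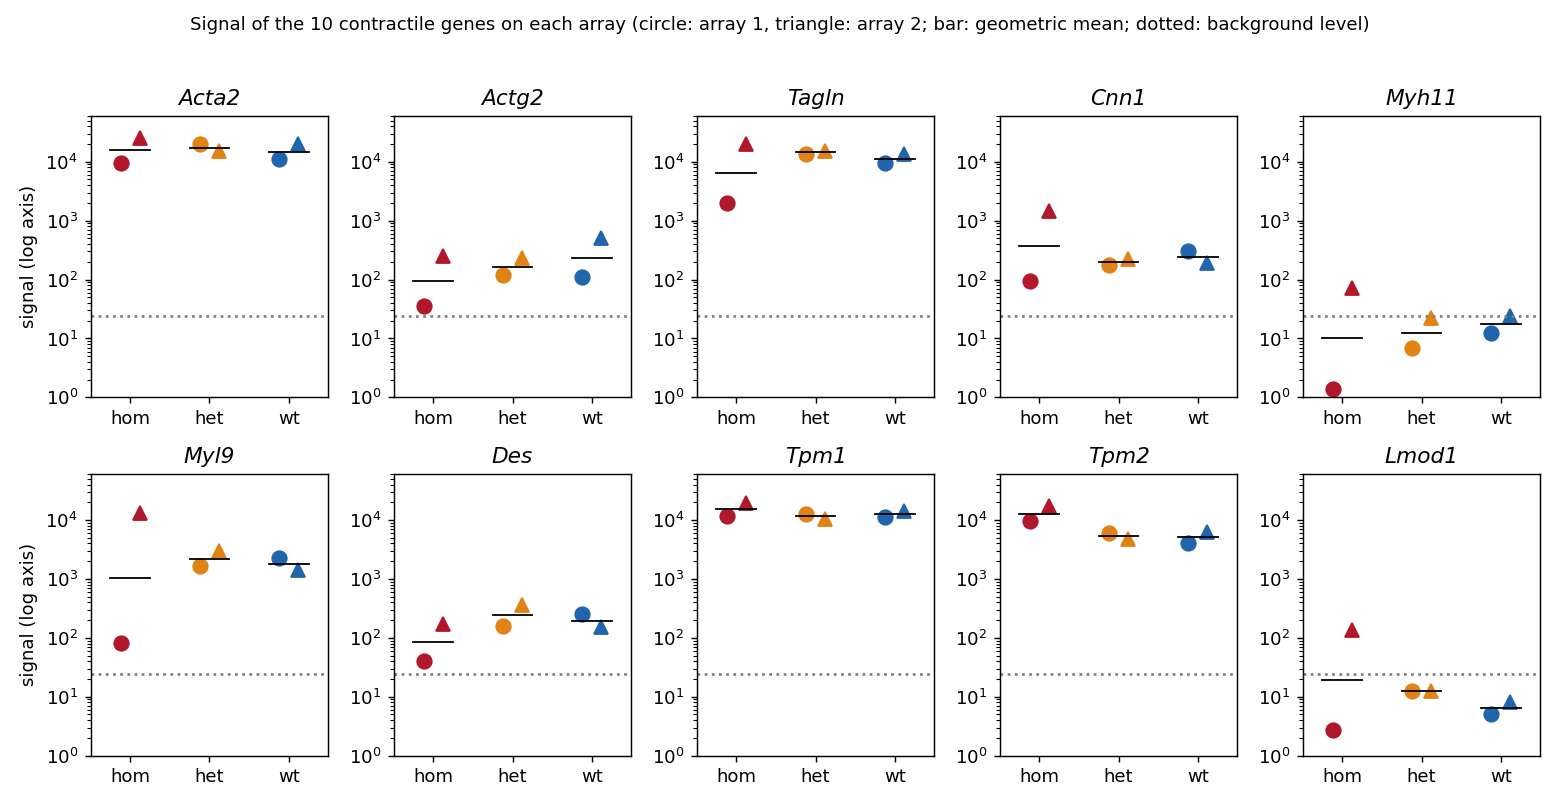
Signal of each of the 10 genes (log axis) on the homozygous, heterozygous and wild-type arrays; circles are array 1, triangles array 2, bars geometric means of 2 arrays and the dotted line the background level of 24.5. In 8 of the 10 panels the homozygous triangle is the highest point, and in 8 the homozygous circle is the lowest; for Myh11 and Lmod1 all points but that triangle lie below background.

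Actins. Acta2, smooth muscle alpha-actin, had signals of 9553 and 25160 on the homozygous arrays, 19754 and 15143 on the heterozygous and 11058 and 19986 on the wild-type arrays. The homozygous values enclosed all the others, and the log2 fold change was 0.06 ± 0.56 (SE, n = 2 arrays per group) against wild-type and -0.16 ± 0.56 against heterozygous cells, with limma adjusted p of 0.952 and 0.872. Actg2, the gamma-actin of visceral smooth muscle, had signals of 36.2 and 246 in homozygous, 117 and 230 in heterozygous and 109 and 506 in wild-type cells. Homozygous array 1 was lowest, but the wild-type arrays also lay 2.22 apart on the log2 scale, against 2.76 for the homozygous pair. Its log2 fold change was -1.31 ± 1.15 against wild-type and -0.80 ± 1.15 against heterozygous cells, with limma adjusted p of 0.480 and 0.668.

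Myosin. Myl9, the regulatory light chain of smooth muscle and nonmuscle myosin, had signals of 82.5 and 13293 on the homozygous arrays, 1635 and 2942 on the heterozygous and 2267 and 1416 on the wild-type arrays. Array 1 was thus far under, and array 2 well over, a narrow range shared by the other 4 arrays. Only 0.394% of tested genes had as large a difference in this direction between the homozygous arrays. The fitted log2 fold change of -0.77 ± 2.30 against wild-type cells had a 95% interval from -6.59 to 5.04, and that against heterozygous cells was -1.07 ± 2.30 (limma adjusted p 0.843 and 0.781). Myh11, the smooth muscle myosin heavy chain, had signals of 1.4 and 70.7 on the homozygous arrays, 7.0 and 22.1 on the heterozygous and 12.3 and 24.3 on the wild-type arrays. It was above background on homozygous array 2 alone, was not tested, and no fold is given.

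Actin-binding proteins. Tagln, transgelin, which cross-links actin filaments, had signals of 1986 and 20058 on the homozygous arrays, 13491 and 15369 on the heterozygous and 9447 and 13280 on the wild-type arrays. Cnn1, the basic calponin that restrains myosin on actin, had signals of 96 and 1478 on the homozygous arrays, 178 and 226 on the heterozygous and 304 and 189 on the wild-type arrays. In both genes the homozygous arrays enclosed the rest, Tagln mainly by a low array 1 and Cnn1 mainly by a high array 2, which was 4.87-fold above the highest of the other 4 arrays. Tagln had a log2 fold change of -0.83 ± 1.06 against wild-type and -1.19 ± 1.06 against heterozygous cells, and Cnn1 0.65 ± 1.26 and 0.91 ± 1.26, none of which passed (limma adjusted p of 0.630 and 0.482, and of 0.754 and 0.655). Lmod1, leiomodin, which starts new actin filaments in smooth muscle, had signals of 2.8 and 134 on the homozygous arrays, 12.4 and 12.7 on the heterozygous and 5.2 and 8.3 on the wild-type arrays. As with Myh11, homozygous array 2 alone lay above background, and the gene was not tested.

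Intermediate filament. Des, desmin, had signals of 40.9 and 173 on the homozygous arrays, 161 and 367 on the heterozygous and 251 and 150 on the wild-type arrays. Array 1 was lowest of the 6, and array 2 lay within the range of the others. The log2 fold change was -1.21 ± 0.80 against wild-type and -1.53 ± 0.80 against heterozygous cells (limma adjusted p 0.358 and 0.255).

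**Figure D2:**
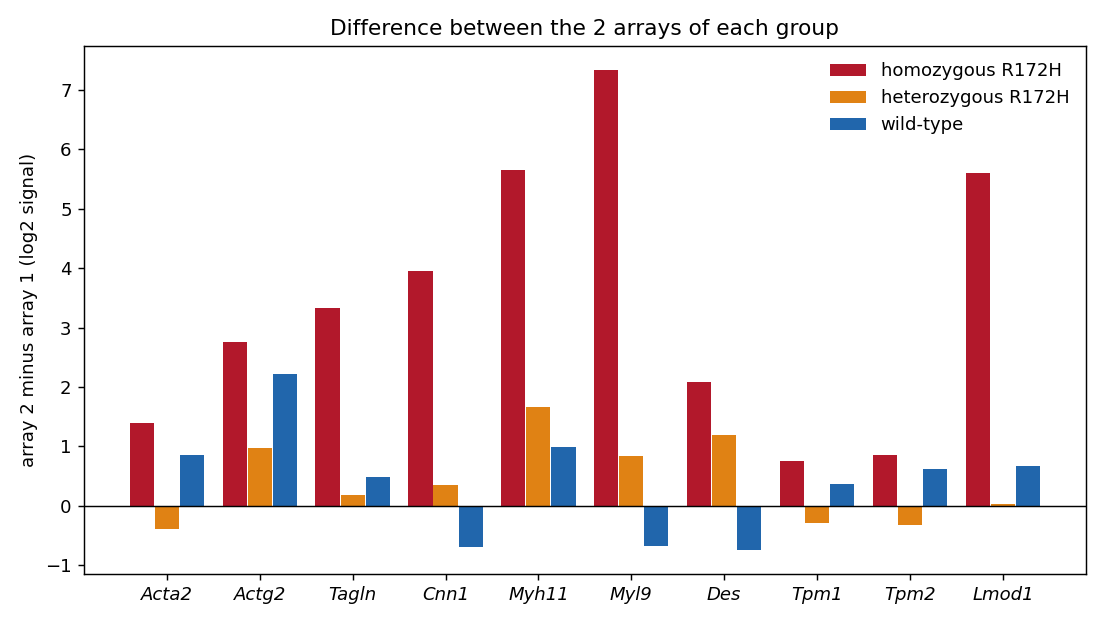
Array 2 minus array 1 on the log2 scale for each gene, in the homozygous, heterozygous and wild-type pairs. The homozygous bars are all positive, from 0.76 for Tpm1 to 7.33 for Myl9, and for every gene they exceed both other bars.

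Tropomyosins. Tpm2, beta-tropomyosin, was the one member with both homozygous arrays above all the others: its signals were 9549 and 17248 in homozygous, 5960 and 4764 in heterozygous and 4125 and 6355 in wild-type cells. Such a position was held by 23.4% of all tested genes. The log2 fold change was 1.33 ± 0.40 against wild-type cells, with a 95% interval from 0.32 to 2.33 and an unadjusted p of 0.0192 by limma, and it did not pass after adjustment (adjusted p 0.114). Against heterozygous cells it was 1.27 ± 0.40, with an unadjusted p of 0.0226 and an adjusted p of 0.111 by limma. Under 17 alternatives the first adjusted p lay between 0.0554 and 0.448 and the second between 0.0572 and 0.426. Tpm1, alpha-tropomyosin, had signals of 11610 and 19696 in homozygous, 12738 and 10400 in heterozygous and 11168 and 14352 in wild-type cells, and array 1 lay among the other arrays. Its log2 fold changes were 0.26 ± 0.34 and 0.39 ± 0.34 (limma adjusted p 0.646 and 0.471).

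Homozygous against wild-type cells, 0 of the 8 tested members rose and 0 fell, against 2.67% of all tested genes called by limma at an adjusted p under 0.05 (0.412% higher and 2.25% lower). The arrays of the groups did not overlap in 1 member that was higher and 0 that were lower, against 27.4% and 33.8% of all tested genes. Of the 8, 1, Tpm2, had an unadjusted p under 0.05, against 28.9% of all. The median log2 fold change was -0.36 over all 10 members and also over the 8 tested, and that of all tested genes -0.09. Homozygous against heterozygous cells, 0 rose and 0 fell, against 4.09% of all tested genes (0.87% higher and 3.22% lower). The arrays did not overlap in 1 member that was higher and 0 that were lower, against 28.2% and 34.2% of all tested genes, with 1 of 8, again Tpm2, under an unadjusted p of 0.05, against 30.6% of all. The median was -0.24 over all 10 members, -0.48 over the 8 tested and -0.08 over all tested genes. Both comparisons share the homozygous arrays. With signals raised to background before taking log2 the medians of all 10 members were 0.16 and 0.12, and without homozygous array 1 they were 1.30 and 1.23.

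**Figure D3:**
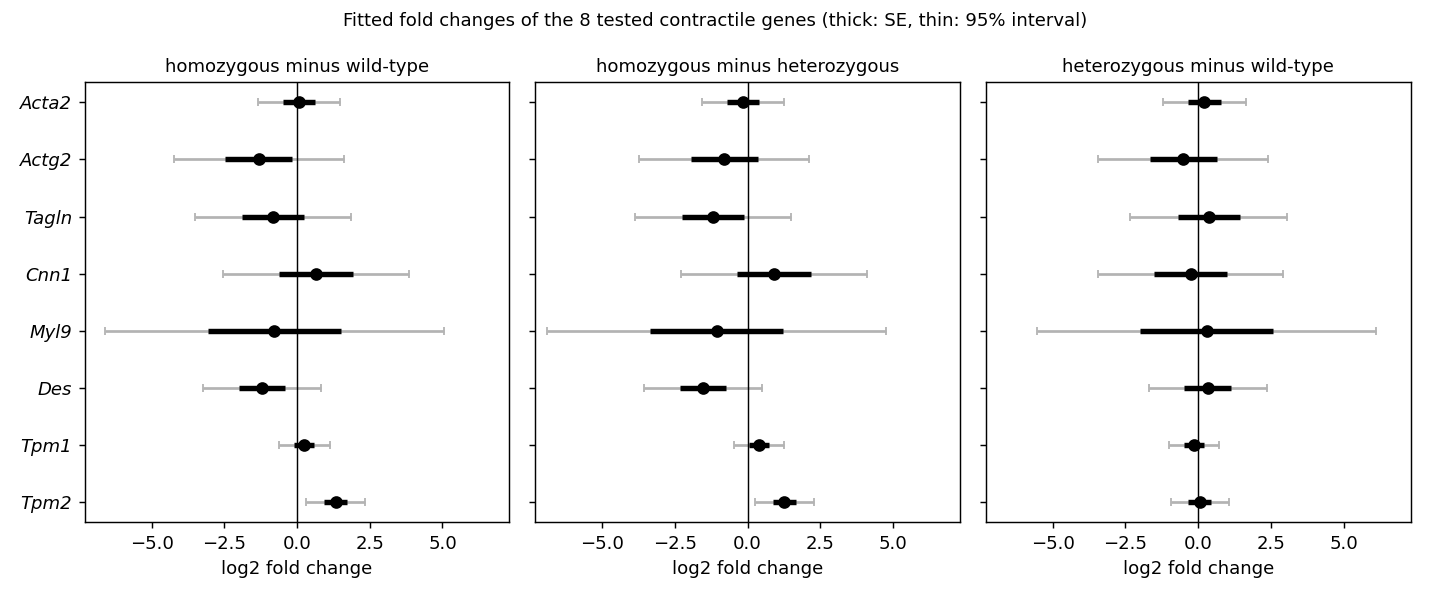
Fitted log2 fold changes of the 8 tested genes in each comparison of genotypes, with SE (thick) and 95% interval (thin), from limma on 2 arrays per group. The variance was pooled over all 3 groups, also for heterozygous against wild-type cells. The intervals of Tpm2 lie above 0 in both comparisons of homozygous cells (from 0.32 against wild-type), and all others include 0.

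Heterozygous against wild-type cells, 0 of the 8 tested members rose and 0 fell, against 0% of all tested genes called by limma. At an unadjusted p under 0.05 there were 0 members, against 0.65% of all tested genes. The fold change furthest from 0 was that of Actg2, -0.51 ± 1.15 on the log2 scale, with a 95% interval from -3.43 to 2.40. Tagln, with 0.36 ± 1.06, was the single tested member whose heterozygous arrays both lay above the wild-type ones, a position held by 13.2% of all tested genes. These SE rest on a variance pooled over all 3 groups, of which the homozygous pair was the most spread. With only the 2 groups compared, the SE was 0.27 for Tagln and 0.76 for Actg2, and again 0 members were called. The members' median was 0.14, against 0.00 for all tested genes. Differences of at least 2-fold within a pair were seen in 1 of the 8 tested members in the heterozygous group (Des) and in 1 in the wild-type group (Actg2), against 7.04% and 8.71% of all tested genes.

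The comparisons with homozygous cells depended on which homozygous array was used. With array 2 alone, Cnn1 was higher by 2.63 ± 0.39 and Myl9 by 2.89 ± 0.48 than in wild-type cells, and both passed (limma adjusted p 0.0224 and 0.0294). These were 2 of the 8 tested members, against 1.15% of all tested genes called higher in that fit. With array 1 alone, the log2 fold changes of Tagln, Myl9 and Des were -2.50 ± 0.34, -4.44 ± 0.48 and -2.25 ± 0.58, and all 3 passed (limma adjusted p 0.00560, 0.00277 and 0.0418). These were 3 of the 8, against 17.8% of all tested genes called lower in that fit. The same genes passed in the same directions against heterozygous cells, where 1.28% of all tested genes were called higher with array 2 alone and 18.9% lower with array 1 alone. In these fits the single homozygous array was assumed to vary like the other groups. Myl9 therefore passed with opposite signs on the 2 homozygous arrays.

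A further 10 probe sets measured 5 of the genes. Homozygous array 2 was above array 1 on 8 of these 10, and 5 of them were above background on all arrays, all of tropomyosins. For Acta2 the probe set used carries a suffix that Affymetrix gives to probe sets shared by related transcripts, so other actins may contribute. Its 2 other probe sets were dim, with 16.5 and 121 on the homozygous, 52.2 and 14.4 on the heterozygous and 89.0 and 50.1 on the wild-type arrays for the brighter one. The second probe set of Des had 23.9 and 38.0 in homozygous, 22.1 and 33.8 in heterozygous and 30.8 and 15.7 in wild-type cells. On it array 1 was not the lowest, and the log2 difference from wild-type was 0.45, against -1.21 on the probe set used; averaging both gave -0.38. The second probe set of Myh11 had 9.7 and 7.2 in homozygous cells and thus did not repeat the high value on array 2.

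For Tpm2, the second probe set had signals of 4763 and 7306 in homozygous, 2714 and 2084 in heterozygous and 2102 and 2781 in wild-type cells, and the third 811 and 702, 138 and 105.5, and 171.8 and 114.6. Both placed the homozygous arrays above the others, with log2 differences from wild-type of 1.29 and 2.43. The suffix of the third marks possible cross-hybridisation, and on it array 1 was the higher homozygous array. The fourth, with 107 and 127 in homozygous, 63.4 and 103 in heterozygous and 116 and 97.8 in wild-type cells, showed overlapping groups. For Tpm1, the second probe set had 7905 and 15296 in homozygous, 7593 and 6270 in heterozygous and 6953 and 7735 in wild-type cells, and the third 232 and 438, 201 and 112, and 146 and 160. On these 2 probe sets the homozygous arrays lay above all the others, which was not so on the probe set used. Probe sets of a gene can detect different splice forms, and tropomyosin genes have many.

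**Figure D4:**
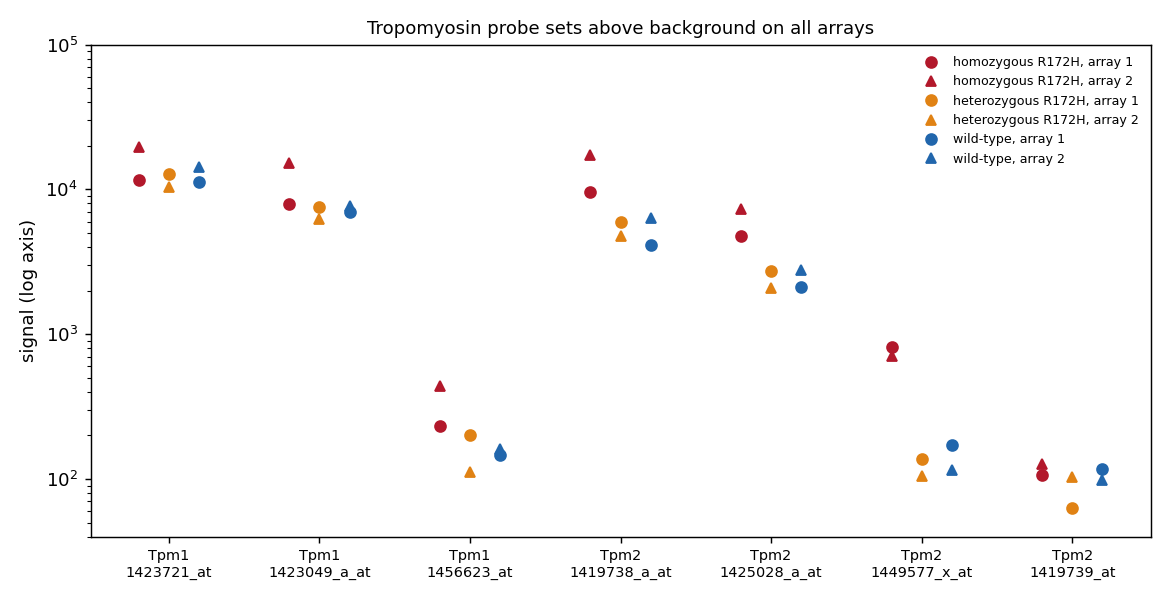
Signals (log axis) of the 3 Tpm1 and 4 Tpm2 probe sets that lay above background on all 6 arrays, by group and array. The homozygous arrays are the 2 highest points on the Tpm1 probe sets other than the brightest and on the first 3 Tpm2 probe sets.

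Regulators of these genes did not pass in any comparison. Of 12 tested genes of the SRF and myocardin family list, 0 rose and 0 fell in each of the 3 comparisons, and the median difference between homozygous array 2 and array 1 was 0.82 on the log2 scale, against 2.42 for the tested contractile genes and 0.04 for all tested genes. Gata6, a transcription factor of the ovarian and cardiac lineages, had signals of 4953 and 9624 in homozygous, 10523 and 9879 in heterozygous and 9787 and 10519 in wild-type cells. Tead1, which binds the TEAD element, had 4411 and 8291 in homozygous, 6018 and 4205 in heterozygous and 4946 and 5566 in wild-type cells. The next 3 genes of this list were chosen after their values were seen. Srf had signals of 864 and 1600 in homozygous, 562 and 319 in heterozygous and 568 and 499 in wild-type cells, and did not pass against wild-type (log2 1.14 ± 0.43, limma adjusted p 0.160). Fhl1, a LIM protein of muscle, had 153 and 2727 in homozygous, 1299 and 1815 in heterozygous and 3549 and 1012 in wild-type cells. Its homozygous arrays lay 17.9-fold apart, with array 1 lowest and array 2 below wild-type array 1. Myocd, myocardin, was under background on all 6 arrays, with 23.7 as its highest signal.

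Genes that act on the myosin light chain and on thin filaments had smaller median differences between the homozygous arrays. Of 15 tested genes of myosin light chain control and of 20 tested accessory genes of thin filaments and dense bodies, 0 rose and 0 fell in each comparison, and the median difference between the homozygous arrays was 0.44 and 0.60. Myl12a, a nonmuscle regulatory light chain, had signals of 21737 and 22751 in homozygous, 23325 and 25235 in heterozygous and 22708 and 26399 in wild-type cells, where its relative Myl9 spanned 161-fold in the homozygous pair. Myl12b, a second nonmuscle light chain, had 9538 and 5750 in homozygous, 16801 and 22998 in heterozygous and 15929 and 18076 in wild-type cells. The homozygous arrays of Myl12b lay below the others, with array 1 the higher. Cnn3 and Cald1, an acidic calponin and caldesmon, which restrains actomyosin, stayed within 19675 to 27804 on all 6 arrays. The nonmuscle actins Actb and Actg1 lay between 29636 and 42397. Of 4 nonmuscle actin and myosin genes, 0 were called in each comparison.

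Of 9 tested TGF-beta genes 0 rose and 0 fell in each comparison, and 4 of the 9 were higher on homozygous array 2 than on array 1. Ccn2, a matricellular protein and target of TGF-beta and TEAD factors, had signals of 5533 and 20532 in homozygous, 12724 and 7363 in heterozygous and 9073 and 10672 in wild-type cells, so that the homozygous arrays enclosed the rest as for Acta2. Skil, a feedback inhibitor of SMAD signalling, had 3273 and 5624 in homozygous, 3126 and 2846 in heterozygous and 2512 and 2916 in wild-type cells.

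**Figure D5:**
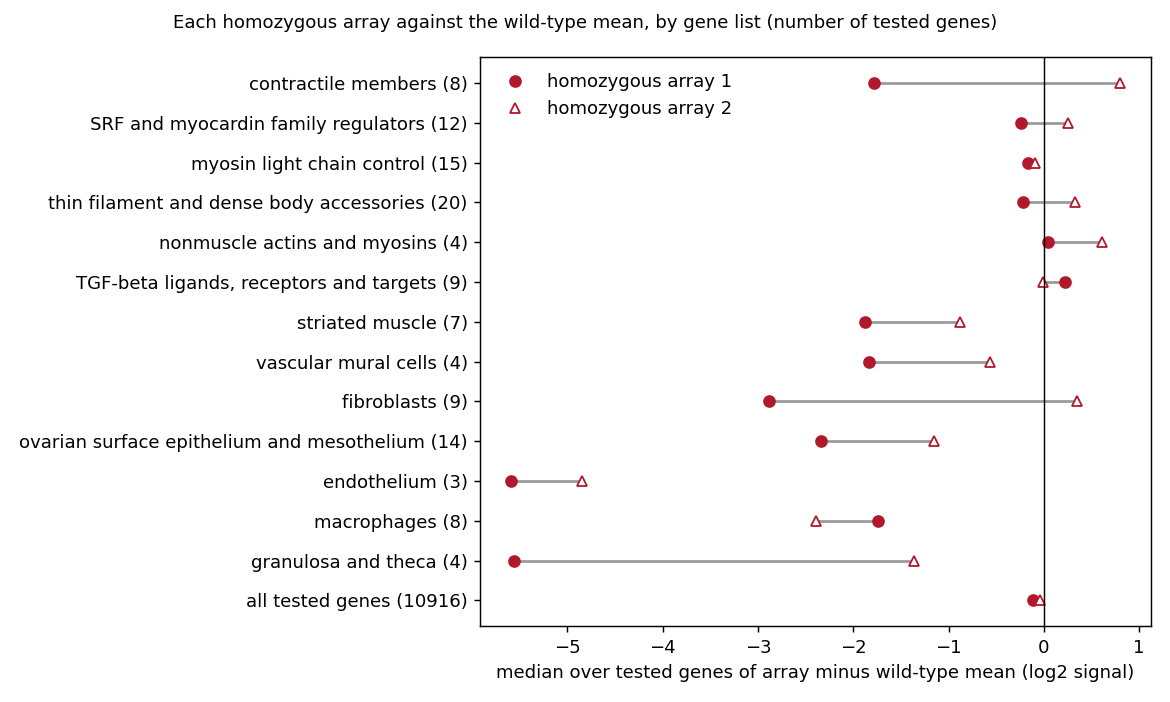
Median over the tested genes of each list of homozygous array 1 (filled circle) and array 2 (open triangle) minus the wild-type mean, on the log2 scale. The contractile genes lie at -1.78 on array 1 and 0.80 on array 2, the fibroblast markers at -2.88 and 0.35, and all tested genes at -0.11 and -0.04.

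Markers of other cell types differed between the same arrays; in these bulk samples fewer cells of a type and less RNA per cell cannot be told apart. The summed signal of 10 fibroblast markers was 52871 and 118989 on the homozygous arrays, 75553 and 86880 on the heterozygous and 88288 and 79949 on the wild-type arrays, with 6, 9, 9, 10, 9 and 9 of the 10 above background in that order. The fibroblast markers thus had the lowest sum on the array where contractile genes were lowest and the highest where they were highest. In 8 of the 10 array 2 was the higher homozygous array. Pdgfra, the receptor that marks many fibroblasts, did not follow this: it had 130 and 103 in homozygous, 801 and 1083 in heterozygous and 615 and 1056 in wild-type cells, and it fell against both by limma (adjusted p 0.0326 and 0.0291). Col3a1, a fibrillar collagen, was chosen after its values were seen. It had 255 and 31824 in homozygous, 22825 and 24594 in heterozygous and 26026 and 23987 in wild-type cells. Homozygous array 1 was far under the heterozygous and wild-type arrays, as for Myl9. Homozygous array 2 lay only a little above them, unlike for Myl9. Vim, Col1a2 and Thy1 were also chosen after their values were seen. Vim (29983) and Col1a2 (21105) made up most of the sum on array 1, and neither was low there. Vim had 28014 on array 2, and Col1a2 on array 1 exceeded every heterozygous and wild-type array. Thy1 was low on both homozygous arrays, with 3.4 and 37.3, against 622 and 428 in heterozygous and 677 and 458 in wild-type cells. The part of fibroblast-type expression in the contractile pattern was not tested.

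The sum of 10 markers of vascular mural cells, which wrap vessels and express contractile genes, was 284 and 349 on the homozygous, 965 and 1842 on the heterozygous and 1113 and 956 on the wild-type arrays. It was low on both homozygous arrays, and 4 and 3 of its 10 markers were above background there. Rgs5, a defining marker, was under background on both, and also on heterozygous array 1 and wild-type array 2. Pdgfrb, a receptor of mural cells and fibroblasts chosen after its values were seen, had 16.5 and 120 in homozygous, 101 and 67.3 in heterozygous and 53.4 and 77.3 in wild-type cells. Its homozygous arrays enclosed the rest, array 1 being under background, as those of several contractile genes did. The part of mural cells in the contractile pattern was not tested. Ndufa4l2, of this list and also induced by low oxygen, had 5.2 and 4.3 in homozygous, 433 and 1379 in heterozygous and 422 and 482 in wild-type cells. It was the brightest of the 10 mural markers on every heterozygous and wild-type array. The lower mural sum in homozygous cells thus came in large part from this gene. Surface epithelium and mesothelium markers summed to 63430 and 88246 on the homozygous, 202096 and 163373 on the heterozygous and 183911 and 223965 on the wild-type arrays, with 13 and 14 of 14 above background on the homozygous arrays and 14 on all others. Most of these markers were thus above background on every array, at lower sums in homozygous cells. In 10 of the 14 array 2 was the higher homozygous array, with a median log2 difference of 1.65, against 0.04 for all tested genes. Relative to wild-type cells their median was -2.33 on array 1 and -1.15 on array 2. Krt18 and Aldh1a2 were chosen after their values were seen. Krt18 made up much of the sum on array 1, with 25436 there and 5623 on array 2. Aldh1a2 was under background on array 1 (1.1) and had 1979 on array 2. The part of these markers in the contractile pattern was not tested. Upk1b, a uroplakin, was called in this list and had 4628 and 4584 in homozygous, 21419 and 17037 in heterozygous and 20757 and 29097 in wild-type cells.

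Macrophage markers summed to 533 and 696 on the homozygous, 4286 and 4579 on the heterozygous and 2557 and 2188 on the wild-type arrays, and endothelial markers to 1930 and 2767, 9108 and 10427, and 10487 and 10948. Both sums were low on both homozygous arrays and did not show the split of the contractile genes. Single macrophage genes, chosen after their values were seen, did differ between the homozygous arrays, in both directions. Csf1r had 55.7 on array 1 and 488 on array 2, and Cd14 had 222 and 6.3. Array 2 was the higher homozygous array in 5 of 11 macrophage genes and in 5 of 9 endothelial genes. Granulosa and theca markers summed to 288 and 1961 on the homozygous, 3420 and 5032 on the heterozygous and 8338 and 4873 on the wild-type arrays, and were lower on homozygous array 1. Against wild-type cells 2 of 8 tested macrophage genes, 3 of 3 endothelial genes and 0 of 4 granulosa and theca genes fell by limma, and 3, 3 and 0 fell against heterozygous cells. Lyz2, a lysozyme of macrophages, had 9.0 and 4.0 in homozygous, 1200 and 999 in heterozygous and 603 and 577 in wild-type cells. Kdr, the endothelial VEGF receptor, had 35.9 and 60.4 in homozygous, 1104 and 1483 in heterozygous and 2469 and 1213 in wild-type cells. Of 9 endothelial genes 3 were tested, and Esam made up most of the sum, with 1791 and 2610, 6836 and 7906, and 7222 and 8168. Cdh5 and Pecam1, chosen after their values were seen, were dim. Cdh5 had 30.2 and 32.1, 13.1 and 55.8, and 40.7 and 34.6, and Pecam1 6.4 and 3.5, 3.5 and 7.2, and 22.5 and 26.9. The endothelial sum thus does not show that such cells were present or lost. The part of these cell types in the contractile pattern was not tested.

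Over the 6 arrays, the 5 genes outside the members whose centred log2 profile lay nearest that of Acta2 were Syce2, Axl, Appbp2os, Ckb and Micalcl, at root mean square differences of 0.14 to 0.16, among 10908 genes compared. Axl, a receptor tyrosine kinase, had signals of 1410 and 3360 in homozygous, 3170 and 2736 in heterozygous and 1760 and 3498 in wild-type cells. Of the tested members, Tpm1 lay nearest to Acta2 at 0.33, with 1.67% of the other genes closer, and Myl9 furthest at 1.85, with 96.5% closer. For the tested members other than Tpm1, between 51.0% and 96.5% of the other genes lay closer to Acta2. These distances cover all 6 arrays and do not measure the homozygous difference alone. By the signals given above, the contractile genes shared the direction of that difference and not its size.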

How the data were processed

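Biotin-labelled RNA was hybridised to Affymetrix mouse arrays, per the labels' protocols. The deposited values are probe set intensities; per the submitters' processing notes RMA was used, with no version given in the sources used here, but the deposited intensities are linear and leaving out the extremes, the middle 96% average 500.0 on every array, the form of MAS 5.0 signals. Each was log2-transformed with no offset. Array number limits precision; there is no count depth.

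Probe sets naming 1 gene (34958; 932 named several and 9211 none) were kept, with symbols updated by Entrez identifier for 34754. The probe set of highest mean stood for its gene, and genes at or above the 40th percentile of the mean (a signal of 60.2) were tested. limma 3.58.1 in R 4.3.3 fitted 3 group means to all 6 arrays with empirical Bayes moderation (3 residual and 2.26 prior degrees of freedom) and Benjamini-Hochberg adjustment over 10916 genes at 0.05. The method was tested on simulated data. Alternatives changed the scaling, offset, filter, choice of probe set, arrays or groups fitted, array weights and replicate block.

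All 10 members were named, with the called genes of each other list (up to 4) or else its 2 brightest, Cdkn1a, and the 5 genes most like Acta2. Members and lists were chosen with earlier results of these data known. Some genes of the lists are not reported here.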

Additional observations from a re-analysis of the deposited data

How the results depend on the processing

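No gene of the 8 was called among 231 values of single genes from alternatives that left out no array of the groups compared (smallest limma adjusted p 0.0572, for Tpm2). Leaving out arrays gave between 0 and 3 called members: 2 without homozygous array 1 and 3 without homozygous array 2, in each comparison with homozygous cells, where 708 and 797 of all genes were called without array 1 and 2703 and 2902 without array 2. Myl9 turned from -0.77 to 2.89 against wild-type and from -1.07 to 2.60 against heterozygous cells without array 1, and was -4.44 and -4.73 without array 2. Members' medians lay between -1.78 and 1.30 against wild-type, between -2.18 and 1.23 for homozygous against heterozygous, and between -0.06 and 0.21 for heterozygous against wild-type cells; the last was -0.19 when probe sets were averaged and 0.50 without wild-type array 2 and heterozygous array 1. Averaged probe sets gave 0.08 for homozygous against heterozygous cells. Array 2 exceeded homozygous array 1 in all 10 genes also with quantile-normalised arrays, median-centred arrays, an offset of 16, signals raised to background and the mean of all probe sets. Centring moved the median of all tested genes from -0.09 to 0.22 and from -0.08 to 0.14 in the comparisons with homozygous cells.

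Calls over all genes, 291 and 446 for homozygous against wild-type and heterozygous cells, were 686 and 809 with signals raised to background, 662 and 767 with the offset, 0 and 17 with no filter, 190 and 281 with the mean of probe sets, and 0 and 4 with only the groups compared. They were 0 and 19 with the replicate block and 0 and 0 without both close arrays; array weights gave 293 for the second. Leaving out 1 array gave between 0 and 2703 and between 0 and 2902. Samples share only a number: deviations of same-numbered arrays correlated at -0.10, 0.16 and -0.30 between the groups, and the block called 0 members. The causes were not tested. Dim genes are uncertain, since linear signals near background spread widely on the log2 scale.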

Other observations

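The summed signal of 18 striated muscle genes, of which 7 were tested and 0 called in each comparison, was 5127 and 1253 on the homozygous, 1435 and 2996 on the heterozygous and 3826 and 1740 on the wild-type arrays. Homozygous array 1 had the highest sum and array 2 the lowest, opposite to the contractile genes, although the median of the 7 tested genes was lower on array 1 than on array 2 relative to wild-type cells (-1.88 and -0.88 on the log2 scale). Tnni1, the slow skeletal troponin I, had signals of 2180 and 64.5 in homozygous, 508 and 608 in heterozygous and 345 and 806 in wild-type cells. Tnnt2, cardiac troponin T, chosen after its values were seen and too dim on average to be tested, had 2491 and 139 in homozygous, 12.0 and 24.0 in heterozygous and 43.9 and 1.4 in wild-type cells. Myl7, an atrial myosin light chain, had 55.1 and 317 in homozygous, 286 and 1446 in heterozygous and 1504 and 158 in wild-type cells.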
